A study of Homo sapiens with 9 samples.

Results

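A block of 5 neighbouring genes on the long arm of chromosome 3, TERC, ACTRT3, MYNN, LRRC34 and LRRC31, was followed in LNCaP cells, a human metastatic prostate carcinoma line, during 24 h with added recombinant NRG1 (neuregulin 1), which binds and activates HER3, a receptor of the EGF receptor family. The 5 genes were taken by name from a table of 37351 genes and lie within 105.4 kb. They had been chosen by their read counts in these same 9 libraries, where neighbours had been seen to fall together. Their levels and fold changes are therefore a description, no p-value is printed for them, and a count of them past a threshold supports nothing. RNA was sequenced at 0, 12 and 24 h, with 3 libraries per time. All 9 were labelled as NRG1-treated, at a stated concentration of 15 ng/mL. All cells had first been kept in medium without serum and calcium. No untreated cells kept equally long in that medium were analysed here. The ligand and the time therefore cannot be told apart in any comparison, that of 24 h with 12 h included. The replicates were wells of one cell line, and p-values measure the spread between these wells only.

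Libraries held 47016302 to 60985825 counts, and mitochondrially encoded genes took 5.02% to 6.09% of them. The markers of luminal prostate cells given here were abundant, from 31.9 CPM (the count of a gene relative to the scaled total of its library) for the lowest value of TMPRSS2 to 1621 CPM for the highest of FOLH1. Of 12 markers of fibroblasts, leukocytes, endothelium and basal cells, COL1A1 (21.5 to 26.5 CPM) and VWF (6.88 to 13.7 CPM) were present, and the other 10 stayed at or below 1.05 CPM. The summed level of these 12 moved with time, from 37.4 to 40.6 CPM at 0 h to 30.3 to 32.0 CPM at 24 h, and its part in the results was not tested. In bulk RNA, fewer cells of a type and less RNA per cell cannot be told apart.

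TERC is the RNA component of telomerase, the enzyme that adds repeats to chromosome ends. It carries the template that the catalytic subunit TERT copies, and its mature form ends without a poly(A) tail. ACTRT3 encodes an actin-related protein known mainly from developing sperm cells. MYNN encodes myoneurin, a DNA-binding protein of the family that joins a BTB domain to zinc fingers. LRRC34 and LRRC31 encode proteins with leucine-rich repeats.

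In GRCh38, TERC (ENSG00000270141.3) lies at chromosome 3, 169764520 to 169765060, on the minus strand. ACTRT3 (ENSG00000184378.3, 169766921 to 169769561, minus strand) follows after a gap of 1860 bp. MYNN (ENSG00000085274.16, 169773396 to 169789716) is on the plus strand, so ACTRT3 and MYNN point away from each other with starts 3835 bp apart. LRRC34 (ENSG00000171757.17, 169793003 to 169812986) and LRRC31 (ENSG00000114248.10, 169839172 to 169869935) are again on the minus strand. Another 3 rows of the table start inside this span. RP11-816J6.3 (169769649 to 169772043) is a long noncoding RNA on the plus strand that starts 88 bp from the start of ACTRT3. RP11-362K14.5 (169777192 to 169780334) is a long noncoding RNA on the minus strand inside MYNN. LRRIQ4 is a protein-coding gene between LRRC34 and LRRC31.

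The RefSeq promoter table (build GRCh38.p14) held 4 of the 5 genes, all but TERC. Their promoters are shown because these 4 genes were all lower at 12 h than at 0 h and LRRC31 then took another course. Each window of 300 bases runs 5′ to 3′ along the gene's own strand and holds the RefSeq start near its end. Capitals mark matches, on either strand, to a set of short motifs. ACTRT3 is at chr3:169769512-169769811 (minus), MYNN at chr3:169773146-169773445 (plus), LRRC34 at chr3:169812855-169813154 (minus) and LRRC31 at chr3:169869886-169870185 (minus).
ACTRT3: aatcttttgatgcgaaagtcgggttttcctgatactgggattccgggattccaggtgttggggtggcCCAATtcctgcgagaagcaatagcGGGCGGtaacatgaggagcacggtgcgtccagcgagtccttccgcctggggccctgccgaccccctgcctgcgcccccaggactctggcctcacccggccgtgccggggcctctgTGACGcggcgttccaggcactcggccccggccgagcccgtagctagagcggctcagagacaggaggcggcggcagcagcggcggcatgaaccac
MYNN: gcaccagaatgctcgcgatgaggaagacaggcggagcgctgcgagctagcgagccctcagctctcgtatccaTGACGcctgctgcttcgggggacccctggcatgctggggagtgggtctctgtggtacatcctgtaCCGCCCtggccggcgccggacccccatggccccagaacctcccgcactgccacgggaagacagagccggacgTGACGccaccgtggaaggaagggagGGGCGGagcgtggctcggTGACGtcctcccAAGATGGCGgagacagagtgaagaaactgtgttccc
LRRC34: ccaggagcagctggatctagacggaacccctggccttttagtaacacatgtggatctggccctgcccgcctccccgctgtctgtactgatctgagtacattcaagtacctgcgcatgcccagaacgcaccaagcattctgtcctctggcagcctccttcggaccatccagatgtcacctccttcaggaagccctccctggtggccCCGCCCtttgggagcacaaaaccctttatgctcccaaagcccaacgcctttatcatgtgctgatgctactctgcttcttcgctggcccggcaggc
LRRC31: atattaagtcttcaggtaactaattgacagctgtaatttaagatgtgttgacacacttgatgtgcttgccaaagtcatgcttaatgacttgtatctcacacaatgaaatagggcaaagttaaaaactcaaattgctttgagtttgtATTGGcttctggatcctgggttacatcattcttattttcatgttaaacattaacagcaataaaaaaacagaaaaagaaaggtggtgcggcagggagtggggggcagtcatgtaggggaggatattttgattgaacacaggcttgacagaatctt

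The windows of ACTRT3 and MYNN were rich in G and C, at 66.7% and 66%, with 27 and 24 CG dinucleotides. That of LRRC34 had 58% and 10, and that of LRRC31 had 37.3% and 1, against medians of 58.7% and 14 over 35116 RefSeq windows of the same length. The motif GGGCGG, which proteins of the SP and KLF families bind, was present once for ACTRT3, 2 times for MYNN and once for LRRC34, and in 45% of all windows. CCAAT, the site of the factor NF-Y, was present for ACTRT3 and LRRC31 and in 34.6% of all windows. TGACG, the core of sites for CREB and ATF proteins, was found once for ACTRT3 and 3 times for MYNN (24.6% of all windows), and AAGATGGCG, part of a YY1 site, for MYNN (1.75%). These last motifs were added after the sequences had been read. No match in these 4 windows was found for CCGGAAG (an ETS site, 10.3% of all windows), for TGANTCA (an AP-1 site, 7.71%), for CACGTG (an E-box, 7.26%) or for TATAAA (the TATA box, 11.5%). No printed match overlapped another. The RefSeq start of LRRC34 differs by 82 bp from that of the count table, and those of ACTRT3 and LRRC31 are the same. For MYNN only a window whose start equals that of the count table was taken, so its agreement was fixed by that choice.

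The 5 genes differed widely in abundance. Per kilobase of exon (exon lengths from GENCODE), MYNN was at 12.6 ± 0.0924 CPM per kb at 0 h and ACTRT3 at 8.21 ± 0.430 (SD, n = 3 for every mean given). LRRC31 was at 3.68 ± 0.132 CPM per kb, TERC at 1.20 ± 0.355 and LRRC34 at 0.272 ± 0.00663. No neighbours in this order had overlapping mean ± SD. The TERC value counts whatever TERC RNA entered mRNA libraries and is no measure of the mature, tailless RNA.

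TERC, the telomerase RNA, was the least abundant in plain counts. It had 46, 45 and 25 reads at 0 h, 16, 12 and 8 at 12 h, and 8, 7 and 6 at 24 h. On scaled libraries this was 0.742, 0.776 and 0.428 CPM at 0 h, 0.296, 0.227 and 0.165 CPM at 12 h, and 0.170, 0.129 and 0.115 CPM at 24 h. Every library at 12 or 24 h was below every 0 h library, while the 12 and 24 h libraries overlapped. The fitted log2 fold change (edgeR) was -1.48 with a standard error (SE) of 0.41 at 12 h and -2.22 with an SE of 0.44 at 24 h, and the mean at 24 h was 21.3% of that at 0 h. Only at 0 h were all 3 libraries above the level that the filter on low counts asks for, so TERC entered the fit through the group where it is high.

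ACTRT3, the actin-related gene next to it, was at 13.3, 14.54 and 13.3 CPM at 0 h, 7.19, 7.72 and 7.31 CPM at 12 h, and 4.82, 3.75 and 5.24 CPM at 24 h. The 3 times did not overlap, with each later time lower. Its log2 fold changes against 0 h were -0.89 (SE 0.089) at 12 h and -1.58 (SE 0.094) at 24 h, which left 54.0% and 33.6% of the 0 h mean.

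MYNN, the BTB zinc finger gene, was the most abundant of the 5. It was at 64.4, 65.4 and 64.9 CPM at 0 h, at 37.6, 37.0 and 38.1 CPM at 12 h, and at 26.8, 25.3 and 30.4 CPM at 24 h. The groups again did not overlap. The log2 fold changes were -0.79 (SE 0.047) and -1.24 (SE 0.049), which left 57.9% and 42.3% of the 0 h mean. MYNN shares 794 exon bases with RP11-362K14.5 on the other strand. Whether strand was used in counting is not given, so reads there cannot be assigned with certainty, and RP11-362K14.5 had few reads beside MYNN.

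LRRC34, a leucine-rich repeat gene, had between 83 and 87 reads in the 0 h libraries, between 30 and 39 after 12 h and between 18 and 28 after 24 h. In CPM these were 1.40, 1.43 and 1.47 at 0 h, 0.723, 0.568 and 0.785 at 12 h, and 0.511, 0.515 and 0.346 at 24 h. No library of a later time reached the lowest of an earlier one. Its log2 fold changes were -1.05 (SE 0.25) and -1.65 (SE 0.26), with SEs larger than for MYNN at this lower count. In GENCODE v44 its exons share 117 bases with those of LRRIQ4, which had 0 to 6 reads per library. The v44 coordinates of LRRIQ4 differ from those of the count table. There LRRIQ4 starts at 169821922, beyond the end of LRRC34 at 169812986.

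LRRC31, at the far end of the block, took another course. It was at 11.03, 11.7 and 11.8 CPM at 0 h, 6.37, 6.77 and 7.06 CPM at 12 h, and 7.46, 7.74 and 7.56 CPM at 24 h. All 3 libraries at 24 h lay above all 3 at 12 h, and below all 3 at 0 h. GPR160 and RPL22L1, genes beyond the block described below, also had all 24 h libraries above all 12 h libraries. How many genes of the whole table did so was not counted. The log2 fold change was -0.77 (SE 0.080) at 12 h, close to that of MYNN, and -0.60 (SE 0.079) at 24 h. Between 12 and 24 h it changed by 0.17 (SE 0.085), where the other 4 had values from -0.74 for TERC to -0.45 for MYNN. Its mean was 58.6% of that at 0 h at 12 h and 66.0% at 24 h. For TERC, ACTRT3, MYNN and LRRC34, between 56.3% and 66.7% of the log2 change at 24 h was present at 12 h.

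**Figure D1:**
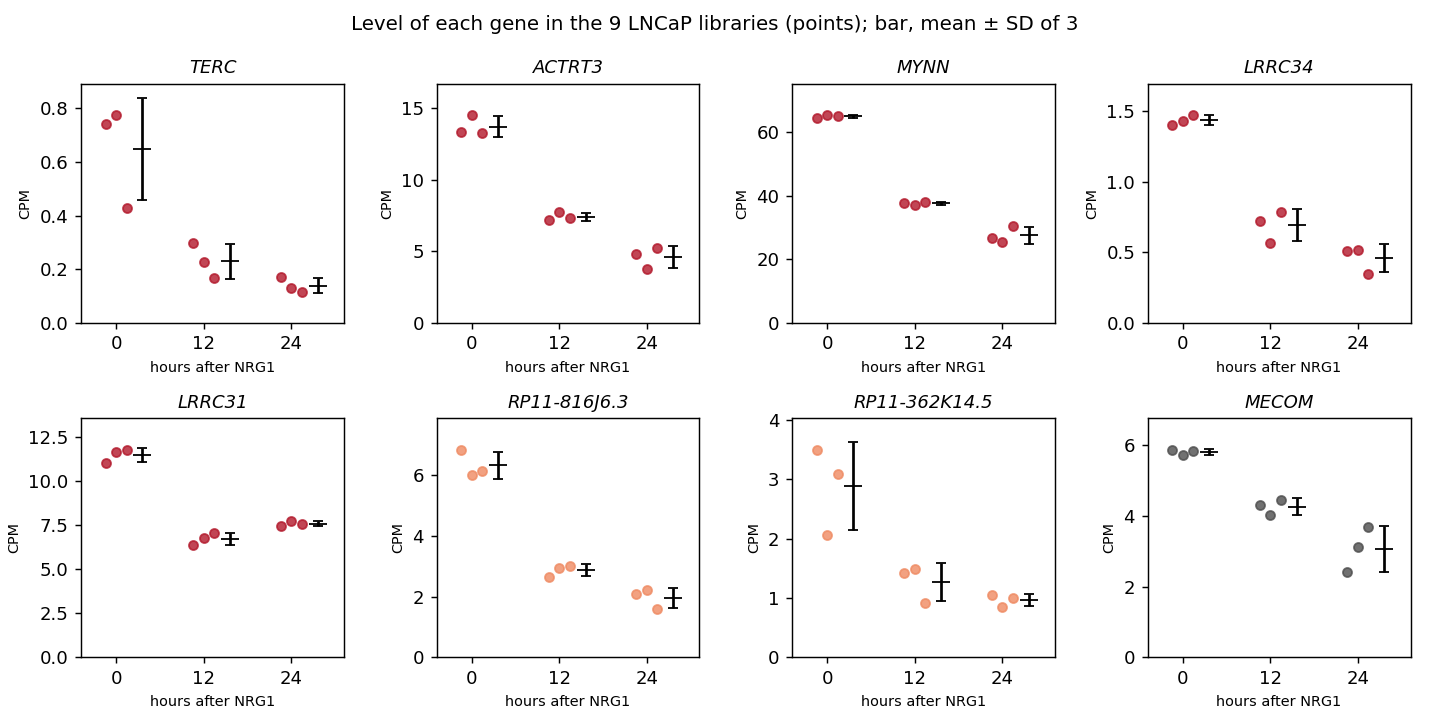
CPM (vertical axis, from 0) of the 5 block genes (red), 2 noncoding RNAs of the span (orange) and the flanking gene MECOM (grey) against hours after NRG1. Points are single libraries, 3 per time, and bars give mean ± SD. LRRC31 is the only one of these panels in which all 24 h points lie above all 12 h points. The flanking genes GPR160 and RPL22L1, not drawn here, also had this order.

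**Figure D2:**
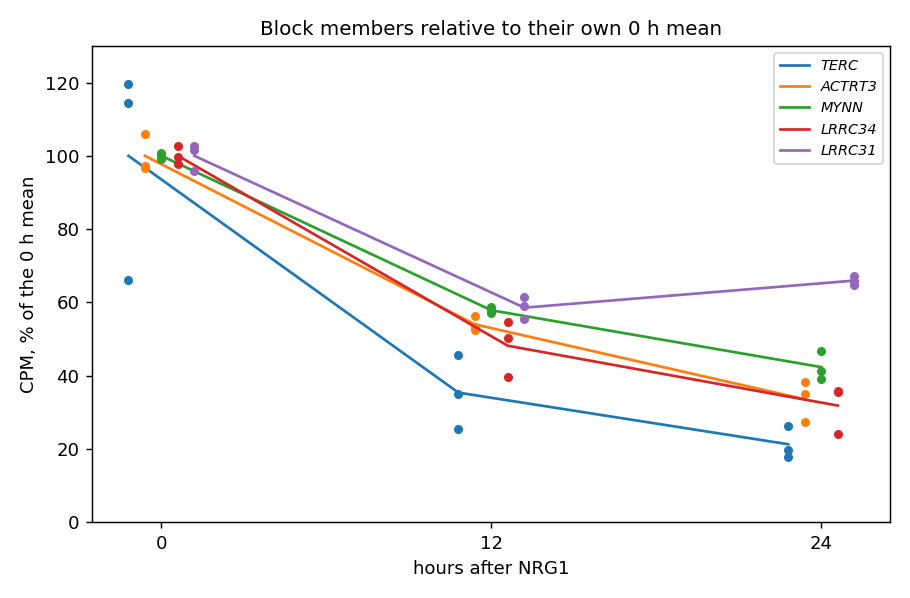
CPM of each block gene in each library as a percentage of the gene's own 0 h mean, against hours after NRG1. Lines join the means of 3 libraries. At 24 h the means stand at 21.3% for TERC, 33.6% for ACTRT3, 31.8% for LRRC34, 42.3% for MYNN and 66.0% for LRRC31.

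Over the 5 genes, the median log2 fold change was -0.89 at 12 h and -1.58 at 24 h against 0 h, and -0.59 at 24 h against 12 h, where the medians over all tested genes were -0.0084, -0.0068 and 0.0011. By the thresholds of the study's methods (adjusted p of at most 0.05 and a fold of at least 1.5), all 5 genes were lower at 12 h and all 5 at 24 h, and 1, ACTRT3, was lower at 24 h than at 12 h. Over all tested genes, 1.38%, 1.78% and 0.203% were lower by the same rule. LRRC31 lay near the fold of 1.5 at 24 h, with values from -0.63 to -0.576 over 16 alternatives, on both sides of that threshold. Because the genes were picked on these values, and TERC entered the fit through its 0 h libraries, nothing is read from these counts.

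The noncoding RNAs of the span were not among the 5 genes chosen, and they were tested in the fit over all genes with edgeR's quasi-likelihood test. They lie in a span chosen because its genes fell in these same libraries, so their p-values are not independent of that choice. RP11-816J6.3, which shares its start region with ACTRT3, fell from 6.82, 6.00 and 6.12 CPM at 0 h to 2.65, 2.95 and 3.02 CPM at 12 h and 2.09, 2.21 and 1.59 CPM at 24 h. No library overlapped between the times. The log2 fold changes were -1.14 (SE 0.12, edgeR adjusted p = 9.28e-09) and -1.69 (SE 0.13, edgeR adjusted p = 1.6e-12). It shares no exon bases with another row of the window. RP11-362K14.5, antisense to MYNN, was at 3.50, 2.07 and 3.08 CPM at 0 h, 1.43, 1.49 and 0.909 CPM at 12 h, and 1.04, 0.846 and 0.998 CPM at 24 h. It fell by 1.17 on the log2 scale at 12 h (SE 0.20, edgeR adjusted p = 4.56e-05) and by 1.59 at 24 h (SE 0.21, edgeR adjusted p = 3.94e-07), with its later libraries overlapping. Of its 3143 exon bases, 794 are also MYNN exon, and without strand in the counting its fall cannot be separated from that of MYNN.

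Flanking genes were those whose lower table coordinate lies within 1 Mb of the block, whichever strand they are on. Of 23, 9 had enough counts to be tested, and the other 14 stayed at or below 0.145 CPM in every library. By edgeR's adjusted p of at most 0.05, 1 of the 9 was higher and 2 were lower at 12 h, and 2 were higher and 2 lower at 24 h. Over all tested genes 10.6% were higher and 8.16% lower at 12 h, and 11.6% higher and 9.48% lower at 24 h. In the direct comparison of 24 h with 12 h, 1 of the 9 was lower and 0 were higher, by DESeq2 likewise 0, and 2 were higher at an unadjusted p of at most 0.05. The background was 3.05% lower and 3.03% higher.

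MECOM, which encodes a zinc finger transcription factor, is the nearest tested gene on the left. It spans 580.3 kb on the minus strand, and its start lies 100.7 kb from TERC. It was at 5.87, 5.71 and 5.84 CPM at 0 h, 4.32, 4.01 and 4.46 CPM at 12 h, and 2.41, 3.11 and 3.69 CPM at 24 h, with no overlap between times. Its log2 fold change was -0.45 at 12 h (SE 0.12, edgeR adjusted p = 0.00581) and -0.91 at 24 h (SE 0.12, edgeR adjusted p = 4.56e-07). MECOM was the 1 flanking gene whose fall at 24 h passed the fold of 1.5. RPL22P1, a pseudogene inside MECOM, had log2 fold changes of -0.065 (SE 0.27) and 0.065 (SE 0.26).

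On the right, the nearest tested row was RP11-379K17.4, a noncoding RNA with 4 to 16 reads per library, which had log2 fold changes of -0.16 (SE 0.53) and -0.35 (SE 0.54). SEC62, part of the machinery that moves proteins into the endoplasmic reticulum, starts 96.7 kb beyond LRRC31. It fell from 179 ± 4.75 CPM to 161 ± 1.97 at 12 h and 163 ± 3.97 at 24 h, with log2 fold changes of -0.15 (SE 0.033, edgeR adjusted p = 0.000742) and -0.14 (SE 0.033, edgeR adjusted p = 0.00205). GPR160, an orphan receptor gene, rose at 24 h, from 22.2 ± 0.847 to 27.6 ± 1.51 CPM (log2 fold change 0.31, edgeR adjusted p = 5.45e-05). RPL22L1, a paralog of a ribosomal protein gene at the edge of the window, rose by 0.10 at 12 h (edgeR adjusted p = 0.0186) and by 0.17 at 24 h (5.97e-05). Its 12 h call was lost without 0 h replicate 3 or 12 h replicate 1 (0.091 in both fits). PHC3, PRKCI and SKIL had values between -0.098 and 0.017 and did not pass at either time.

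**Figure D3:**
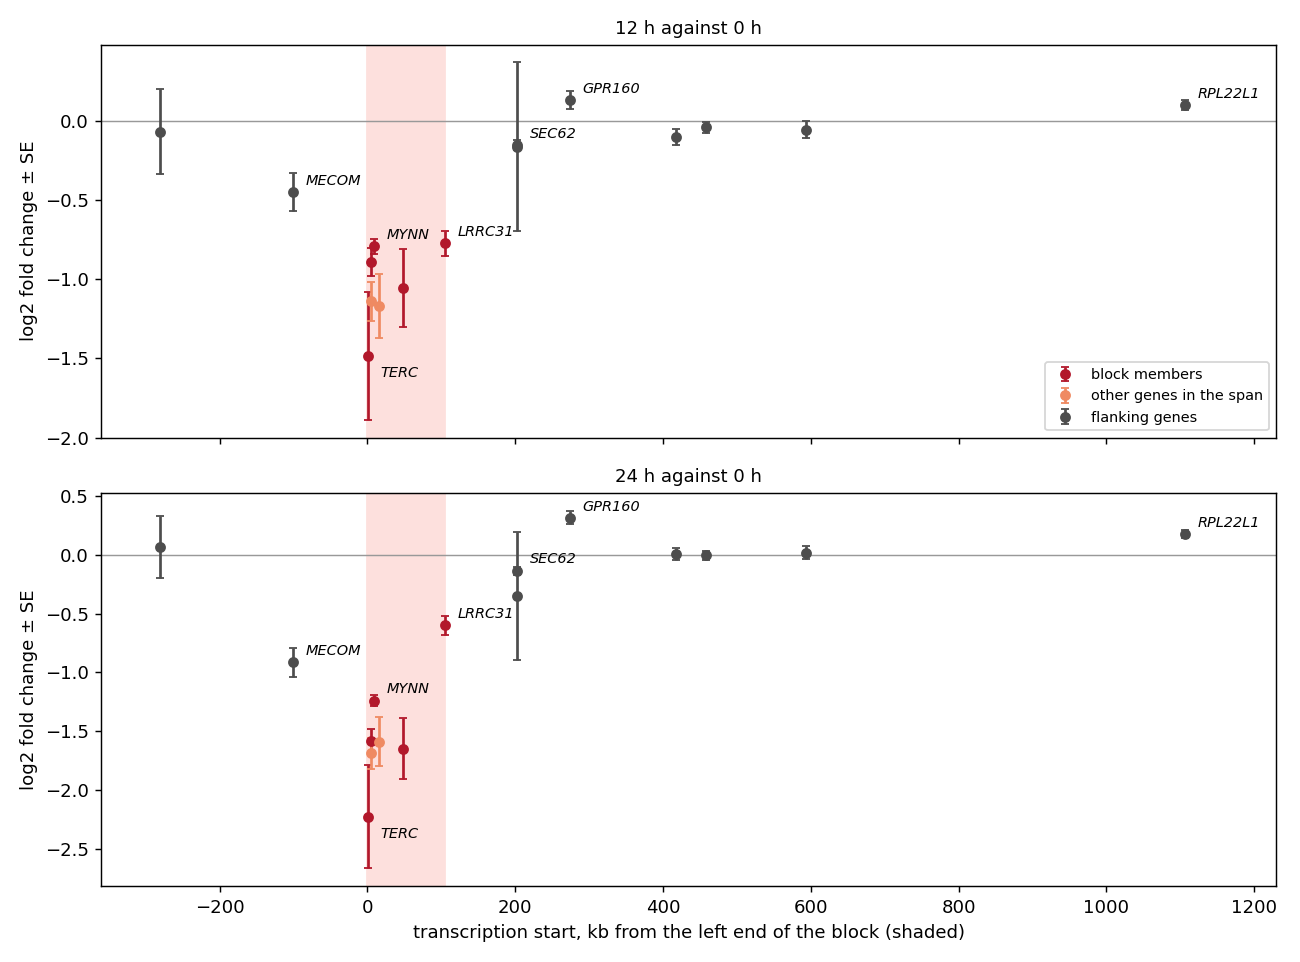
Fitted log2 fold change ± SE (vertical axis) of the 16 tested genes of the window against the position of each transcription start, in kb from the left end of the block, which is shaded. The upper panel is 12 h and the lower 24 h, each against 0 h. The 5 block genes (red), 2 noncoding RNAs (orange) and MECOM lie below 0 in both panels, while GPR160 and the 4 genes to its right lie between -0.098 and 0.31. RP11-379K17.4 starts beside SEC62 and carries the long error bar there.

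Genes that act with TERC were read from a list of 22 for telomerase assembly and TERC maturation, all of them tested. By edgeR 8 rose and 0 fell at 12 h, and 6 rose and 0 fell at 24 h. DESeq2 also gave 0 falls at both times, and 0 genes were lower at an unadjusted p of at most 0.05. Without 12 h replicate 2, 5 passed at 12 h, and at 24 h the count ran from 4 to 7 when each library was left out. With a fold of at least 1.5 asked as well, 0 rose at either time. The share that rose was 36.4% and 27.3%, where 10.6% and 11.6% of all tested genes were higher, and the median log2 fold change of the list was 0.097 and 0.072. No member of the list passed between 12 and 24 h (0 by edgeR and by DESeq2), where 2 were higher and 4 lower at an unadjusted p of at most 0.05. DKC1, the pseudouridine synthase dyskerin that binds and stabilises TERC, had means of 129 CPM at 0 h, 148 CPM at 12 h and 143 CPM at 24 h and rose at both later times (log2 fold changes 0.20 and 0.15, edgeR adjusted p = 8.76e-05 and 0.00222). RUVBL1 (0.24 and 0.19) and RUVBL2 (0.18 and 0.18), the ATPases of telomerase assembly, rose at both times, as did SHQ1 (0.25 and 0.20), a dyskerin chaperone. ZCCHC8, a subunit of a nuclear exosome adaptor, rose at 24 h (0.18). SHQ1 and ZCCHC8 lost their 24 h calls without 0 h replicate 1 (0.15 and 0.13) or 24 h replicate 1 (0.16 in both). TERT, the catalytic subunit, had means of 1.19 CPM at the start, 1.23 CPM after 12 h and 1.69 CPM after 24 h. These differences, 0.048 and 0.50 on the log2 scale, did not pass (edgeR adjusted p = 0.919 and 0.0878), though the 24 h value passed without 0 h replicate 2 (0.69).

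Of 20 genes of chromosome ends (shelterin, the CST complex and their partners), 2 rose and 2 fell at 12 h, and 2 rose and 2 fell at 24 h, or 10% each way, near the shares over all tested genes. POT1, the shelterin protein on single-stranded telomeric DNA, had nearly the same mean at 0 h (67.6 CPM) as at 12 h (67.2 CPM, log2 fold change -0.0079, edgeR adjusted p = 0.923), and fell to 54.6 CPM at 24 h (log2 fold change -0.31, edgeR adjusted p = 7.49e-08). TNKS2, a tankyrase, fell at both times (-0.15 and -0.21), and PINX1, a telomerase inhibitor, rose at both (0.30 and 0.31). RIF1, which binds damaged telomeres, rose at 24 h (0.14), a call lost with no scaling factor (0.15) and without 0 h replicate 2 (0.10) or 3 (0.13) or 24 h replicate 2 (0.15) or 3 (0.12). PINX1 lost its 12 h call without 12 h replicate 1 (0.26).

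Since mature TERC has no poly(A) tail, 20 other RNAs of that kind were listed beside it. Only 3 had enough counts to be tested, so the list says little. RN7SL1, the RNA of the signal recognition particle, was at 42.8, 33.5 and 38.5 CPM at 0, 12 and 24 h, with log2 fold changes of -0.35 and -0.15 that did not pass (edgeR adjusted p = 0.33 and 0.699). SNORA73B, a small nucleolar RNA, rose at 24 h (0.64, edgeR adjusted p = 0.0201), a call lost without 0 h replicate 1 (0.51) or 2 (0.60) or 24 h replicate 3 (0.57). SNORD3A had values of 1.14 (SE 1.40) and 0.85 (SE 1.43) that did not pass. Its reads varied widely between replicates, with 71, 1 and 3 at 0 h, 28, 76 and 38 at 12 h, and 48, 66 and 0 at 24 h. By edgeR 0 of the 3 fell at either time, by DESeq2 also 0, and 0 had a lower value at an unadjusted p of at most 0.05.

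Relatives of ACTRT3 and MYNN were also counted. Of 19 genes for actin-related proteins 13 were tested. At 12 h 4 rose (30.8%) and 0 fell (0 by DESeq2, 0 at an unadjusted p of at most 0.05), and at 24 h 2 rose (15.4%) and 1 fell (7.69%). The shares over all tested genes were 10.6% higher and 8.16% lower at 12 h, and 11.6% higher and 9.48% lower at 24 h. Without any single 0 h or 12 h library the 12 h count was 0 to 2, and it was 2 with no scaling factor. At 24 h it was 1 without 0 h replicate 3 or 24 h replicate 3 and 0 without 24 h replicate 2 or with all genes that had a count. ACTR2 and ACTR3, of the complex that branches actin filaments, rose at 24 h by 0.092 and 0.10, and ACTR8, of a chromatin remodeller, fell by 0.12. ACTR2 lost its call without 0 h replicate 3 (0.090) or 24 h replicate 2 (0.079) or 3 (0.093), ACTR3 without 24 h replicate 2 (0.098) or 3 (0.095), and ACTR8 in 7 of the 9 fits that left out a library (all but those without 0 h replicate 1 or 24 h replicate 1), where its values were -0.11 to -0.094. ACTRT1, the nearest relative of ACTRT3 in name, did not exceed 0.0856 CPM. All 48 other BTB zinc finger genes of the list were tested. At 12 h 5 rose and 9 fell (10.4% and 18.8%), and at 24 h 5 rose and 8 fell (10.4% and 16.7%). The share of rises was near the 10.6% and 11.6% over all tested genes, and the share of falls was above the 8.16% and 9.48%. The 12 h count of 14 became 9 when 0 h replicate 2 was left out, and likewise for 12 h replicate 1 and for 12 h replicate 3. ZBTB43 fell from a mean of 81.9 CPM to means of 53.7 and 61.3 CPM (-0.61 and -0.42, edgeR adjusted p = 2.44e-14 and 2.19e-10), ZBTB16 by 0.28 and 0.40 on the log2 scale, and ZBTB3 by 0.35 at 24 h, while ZBTB25 rose by 0.36 at 24 h.

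**Figure D4:**
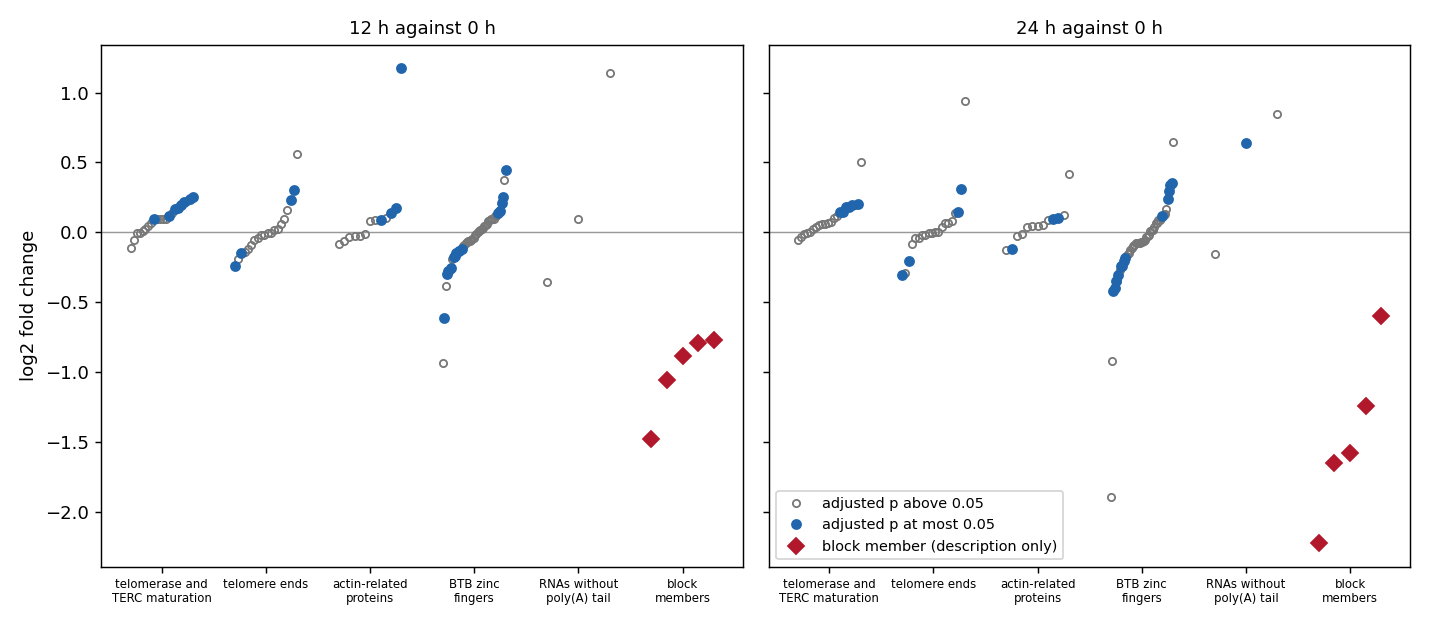
Log2 fold change (vertical axis) of each tested gene of the 5 lists and of the 5 block genes at 12 h (left) and 24 h (right), each against 0 h. Filled circles passed an edgeR adjusted p of 0.05, open circles did not, and diamonds are the block genes, shown as a description. All 6 telomerase genes that passed at 24 h lie above 0.

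Genes elsewhere in the genome with the most similar time course were sought by the root mean square (RMS) difference from the mean profile of the 5 block genes, on log2 CPM centred per gene, over the 9 libraries. Among 13940 genes outside the window, those with small differences included ARG2 (an arginase, chromosome 14, RMS difference 0.112), RLN1 (a relaxin, chromosome 9, 0.125), FAM184B (chromosome 4, 0.130) and SLC30A4 (a zinc transporter, chromosome 15, 0.138). ARG2 was at 48.2 ± 2.53 CPM at 0 h, 26.8 ± 0.549 CPM at 12 h and 21.1 ± 0.615 CPM at 24 h. RLN1 reads are uncertain, because its paralog RLN2 is very similar. Of the block genes themselves, MYNN was at 0.120 and ACTRT3 at 0.167 from the mean profile they helped to form, LRRC34 at 0.194, TERC at 0.333 and LRRC31 at 0.350. Of the 13940 genes, 1 was nearer than MYNN, 10 than ACTRT3, 15 than LRRC34, 101 than TERC and 123 than LRRC31. RP11-816J6.3, which did not enter the mean profile, was at 0.188, with 12 of the 13940 genes nearer, and MECOM was at 0.298, with 61 nearer. These distances are a description, since the 9 libraries fall into 3 groups.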

How the data were processed

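RNA of LNCaP cells was measured by sequencing of mRNA libraries at 0, 12 and 24 h. As the methods of the study describe, the authors trimmed read pairs with Cutadapt, aligned them with STAR to GRCh38 and counted reads per gene with featureCounts and a GENCODE annotation. The deposited counts are whole numbers per gene and library, neither normalized nor pooled. The strand setting is not given in the sources used here. The methods mention 1 LNCaP replicate at time 0 left out for quality, without naming its treatment. The study's figure legend for the sequencing of these cells with NRG1 gives n = 3. All 9 deposited libraries were used, and 14 empty columns were not. Depth was 47016302 to 60985825 counts, and counts bear counting error besides the spread between wells.

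Samples were grouped and numbered by their titles. Genes were kept with filterByExpr (19250 of 37351), libraries were scaled by TMM, and counts were fitted with edgeR 4.0.16 in R 4.3.3 (robust quasi-likelihood, 9 libraries, 3 groups, no covariate), with Benjamini-Hochberg adjustment over all tested genes. SEs derive from the F statistic. Motifs TGACG and AAGATGGCG were added after the promoters had been read. The code was tested on simulated counts. The members, lists and rules were chosen with earlier results of these data known, and lists were written from general knowledge.

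Named genes are the members, every row of their span, the flanking genes past both thresholds, the nearest tested on each side, up to 4 passing genes per list with the largest change at 24 h plus TERT and DKC1, and the 5 genes nearest in profile (mean log2 CPM of at least 0, prior count 2), of which 1 is not reported here. The remaining tested flanking genes, SNORD3A, RN7SL1 and ACTRT1 were named after their values were seen. PINX1 has 2 rows, of which the more abundant was taken. Exon lengths and strands came from GENCODE v44 entries matched by identifier. BLAST 2.17.0 (95% identity over 150 bases) found no copies of the block genes other than overlapping loci. Within groups, the chi-square of counts over its degrees of freedom was 3.10 to 9.03, so no library was a duplicate. Alternatives were DESeq2 1.42.0, other scalings and filters, 6 libraries only, the replicate number as a block, a fold of 1.5, a flank of 500 kb, and each library left out.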

Additional observations from a re-analysis of the deposited data

Results flagged for a closer look

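Among the named genes other than the 5 block genes, the effects at 12 h and at 24 h differed for 5 by the direct edgeR test of 24 h against 12 h, by which 3.03% of all tested genes were higher and 3.05% lower. The block genes are left out here, because they had been chosen on the same values. RP11-816J6.3 lies inside the span of the block, so its p-value is not independent of that choice. RP11-816J6.3 fell further between the times, with a log2 fold change of -0.55 (edgeR adjusted p = 0.0148), which no longer passed when 12 h replicate 2 (-0.52), 12 h replicate 3 (-0.51) or 24 h replicate 3 (-0.42) was left out. MECOM fell further by 0.47 on the log2 scale (-0.47, edgeR adjusted p = 0.0214), which no longer passed when 12 h replicate 1 (-0.46) or 3 (-0.44) or 24 h replicate 1 (-0.33) or 2 (-0.48) was left out. POT1 was lower at 24 h than at 12 h (-0.30, edgeR adjusted p = 1.02e-06) and passed in all 16 alternatives run for it. ZBTB43, lower at both times than at 0 h, was higher at 24 h than at 12 h (0.19, edgeR adjusted p = 0.00206). ZBTB25 was higher at 24 h than at 12 h (0.21, edgeR adjusted p = 0.0296), a call lost in the 5 fits without 12 h replicate 2 or 3 or any 24 h replicate (0.15 to 0.23). Of the list genes that the naming rule did not take, ATRX (0.15, edgeR adjusted p = 0.0201) and ZBTB8B (-2.27, SE 0.70, edgeR adjusted p = 0.0446) also passed. ZBTB8B had only 8, 11 and 21 reads at 12 h and 4, 3 and 1 at 24 h. DESeq2 gave it no adjusted p, so its call rests on few reads and 1 method.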

How the results depend on the processing

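The medians of the 5 block genes kept their sign under every alternative run. Leaving out each library gave -0.92 to -0.84 for 12 h against 0 h, -1.61 to -1.44 for 24 h against 0 h and -0.68 to -0.50 for 24 h against 12 h. With the 2 noncoding RNAs of the span added, a choice made after seeing the data, the 12 h median was -1.05. TERC dropped out where every library needed 10 counts. The list genes that passed were 30, 27 and 5 in the 3 comparisons, and with a fold of at least 1.5 they were 2, 1 and 1. Without each library in turn these counts ran from 19 to 31, 24 to 26 and 2 to 6. Without 12 h replicate 1 the 12 h count was 19, and for 24 h against 12 h it was 2 without 12 h replicate 2, or either of 24 h replicates 2 and 3, and 3 without 12 h replicate 1 or 3 or 24 h replicate 1. The flanking genes that passed were 3, 4 and 1. With a fold of at least 1.5 they were 0, 1 and 0, and with a flank of 500 kb 1, 2 and 0. The flank is measured to the lower coordinate of each gene, so the narrower one leaves out MECOM, although its transcription start is 100.7 kb from TERC. For 24 h against 12 h they were 2 with no scaling factor, with every gene that had a count, with 10 counts asked of every library and with only the 6 libraries compared. Leaving out each library gave 2 to 4, 4 to 4 and 0 to 2, with 0 without 12 h replicate 1 or 3 or 24 h replicate 2, and 2 without 0 h replicate 1. Same-numbered replicates did not deviate together (correlations of -0.037 to 0.029 over 9 pairs), so the numbers are only names. With the replicate number as a block, the medians were -0.89, -1.58 and -0.59, and 31, 27 and 4 list genes and 3, 4 and 1 flanking genes passed. TERC had only 6 to 46 reads per library, which limits the precision of its fold changes.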

Other observations

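LRRIQ4, between LRRC34 and LRRC31, had 4, 1 and 1 reads at 0 h, 4, 3 and 3 at 12 h, and 0, 4 and 6 at 24 h, so no change of this gene was detectable at this depth.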
